A study of Mus musculus with 300 samples.

Results

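The genes described are the translation initiation factor genes of adult mouse spermatogonia. They are the row names of the deposited gene table that begin with Eif followed by a digit from 1 to 6, with Eif2s3x, Eif2s3y and Eif1ax left out by the rule that chose them. That leaves 56 of 23354 gene names. Of the 56, 53 stood at 1 FPKM (sequenced fragments relative to transcript length and to library size) or more in at least 30 cells and entered the tests, which took in 10411 genes. Eif2c2, Eif2c4 and Eif4e1b did not pass this filter. The name pattern also takes in Eif2c1, Eif2c2, Eif2c3 and Eif2c4, which are older names of the Argonaute genes Ago1 to Ago4. Argonautes carry small RNAs in gene silencing and are not initiation factors, so the values of these 4 are given apart. Counts, medians and sums over the members still include them unless a filter left them out.

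The study measured RNA in 300 single cells from untreated adult mice whose spermatogonia express EGFP under control of Id4, a marker of spermatogonial stem cells. Spermatogonia bright for CD9 and positive for ID4-EGFP were sorted, captured one by one on Fluidigm C1 chips, imaged and turned into cDNA with a kit that does not record strand. There were 4 preparations, each from the pooled testes of several mice. The number in a cell's title was taken as its preparation, a link that the labels do not state. Read so, the preparations held 67, 82, 71 and 80 cells. Every cell carries a label for its EGFP quartile, from Q1 (brightest, 79 cells) over Q2 (78 cells) and Q3 (71 cells) to Q4 (dimmest, 72 cells), and all were sorted as EGFP-positive, so there is no reporter-negative control. No genotype differs between the groups. The question was how transcript levels differ along reporter brightness within the sorted spermatogonia.

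Translation begins when the small ribosomal subunit, held open by eIF1, eIF1A and the many-subunit factor eIF3, takes up the initiator tRNA that eIF2 delivers with GTP. The mRNA is brought in by its cap: eIF4E binds the cap, eIF4G links it to eIF3 and to the helicase eIF4A, and eIF5 and eIF5B complete the step at the start codon. Cells control the rate mainly at the cap and at eIF2. The 4E-binding proteins occupy eIF4E and are released from it when mTORC1 phosphorylates them, while the eIF2 kinases phosphorylate eIF2 under stress, which blocks its recharging by eIF2B. In spermatogonia, mTORC1 activity is known to go with the step from stem cells to differentiation.

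Each cell held 2934 to 7817 genes at 1 FPKM or more. Preparation 1 had fewer, 4368 on average, than the other 3, with 5572 to 6216, and the average was 5739 in Q1 and 5373 in Q4. All 10 germ cell and spermatogonia markers on the list were detected. They reached 1 FPKM in 31% of cells for Kit, 58% for Gfra1 and 100% for Dazl and Uchl1. Some markers of other types were detected too, such as the spermatid gene Tnp1 in 51% of cells, so detection alone does not identify the cells. Of the 10 germ cell markers, limma passed Gfra1 as higher and Uchl1 and Stra8 as lower in the brightest than in the dimmest cells. The difference was called in 14 of 14 alternative settings for Gfra1, in 13 for Uchl1 and in 6 for Stra8. That of Stra8 was lost, among others, without preparation 1, 3 or 4 (limma adjusted p = 0.225, 0.0756 and 0.210). Whether the members follow these 3 genes was not tested. By the markers of other cell types, 22 cells matched another type, 9 with macrophage or leukocyte genes, 11 with spermatid genes, 1 with myoid and 1 with pachytene genes, and they were spread over Q1 to Q4 as 4, 6, 6 and 6. Leaving them out left the counts of called members described here at 1 and 2. Of 4 tested spermatid markers, 1 passed, Tnp1, a protein that packs DNA in spermatids. As log2(FPKM + 1) it averaged 3.80 ± 0.46 over the Q1 means of the 4 preparations and 1.99 ± 0.69 over the Q4 means, 1.81 higher in Q1 (SE 0.42, limma adjusted p = 0.0138), with a slope of 0.59 per quartile (SE 0.13, adjusted p = 0.00617). The difference was lost in 6 of 14 alternatives, among them without preparation 1, 3 or 4 (adjusted p = 0.0648, 0.114 and 0.0726), and the part of Tnp1 in the members' results was not tested.

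Initiation factor transcripts were abundant and present in most cells. The median over members of the mean level was 63.3 FPKM, against 14.4 FPKM over all tested genes. Of the 56 members, 38 stood at 1 FPKM or more in at least 80% of cells, and among members that passed the filter this was 71.7%, against 21.8% of all tested genes. Eif2s2, Eif3i and Eif5a reached 1 FPKM in every one of the 300 cells. A cell held a median of 43 members at 1 FPKM or more, with a range from 31 to 51. At the other end, 11 members were found in fewer than 50% of cells, and Eif4e1b, a cap-binding protein of the oocyte, is listed at 0 in all cells. Summed over all 56 genes the level was 6942 ± 354 FPKM per cell (SD over 4 preparations), of which the eIF3 subunits made up 52.7%.

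**Figure D1:**
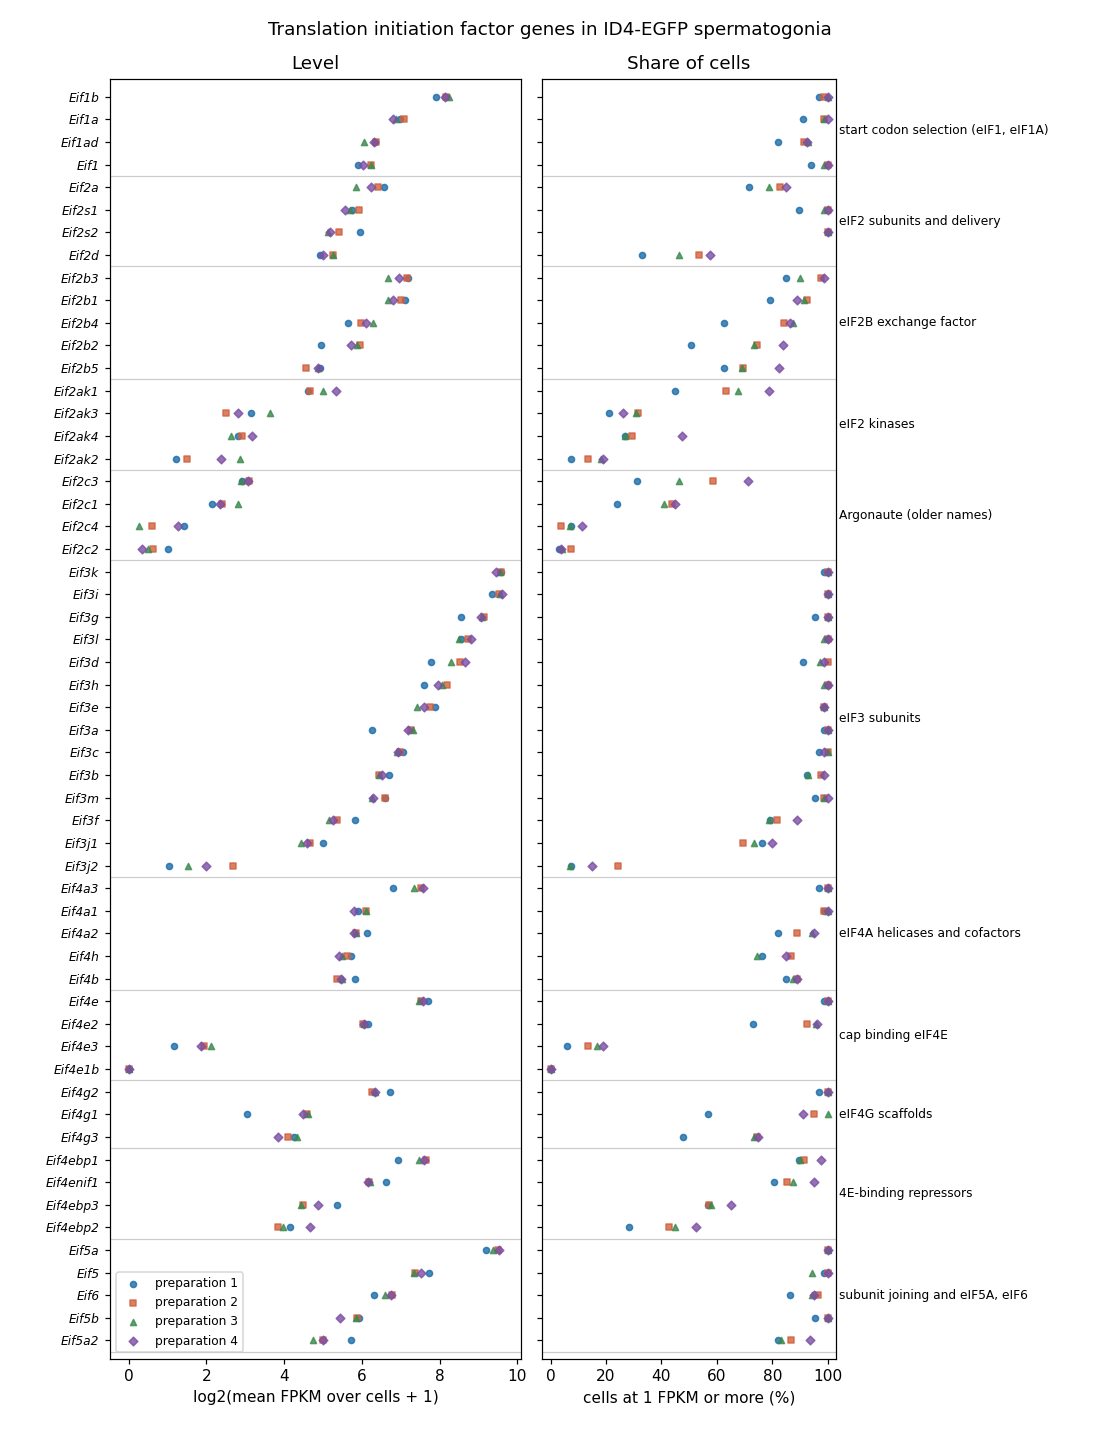
Level of each of the 56 genes in each preparation as log2 of the mean FPKM over cells plus 1 (left) and share of cells at 1 FPKM or more in percent (right), grouped by role, 1 symbol per preparation. Eif3k, Eif3i and Eif5a lie furthest to the right, Eif4e1b lies at 0, and preparation 1 (circles) lies to the left for Eif4g1 and Eif3a.

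To compare brightness groups, log2(FPKM + 1) was averaged over the cells of each preparation and quartile, which gave 16 values per gene, called log2 levels here. limma was fitted to these 16 values with the quartile and the preparation as terms, and p-values were adjusted by Benjamini-Hochberg over all 10411 genes. The preparation, as read from the titles, is the replicate, so n = 4 throughout, and the SD is the spread over preparations. A trend was also fitted, whose slope is the change in log2 level from one quartile to the next brighter one.

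Levels of most initiation factor genes did not differ detectably between the brightest and the dimmest cells. At an adjusted p under 0.05, 1 of 53 members was lower in Q1 than in Q4, Eif4ebp1, and 0 were higher, which is 1.89% of the members. Among all 10411 tested genes 3.25% passed, 2.72% as higher and 0.528% as lower in Q1. In the trend over the 4 quartiles, 2 members passed, Eif4ebp1 downward and Eif2ak3 upward with brightness, or 3.77% of members against 4.51% of all genes (3.77% upward and 0.74% downward). The members' share of calls was thus no higher than that of all genes in either comparison. At an unadjusted p under 0.05, 15 members passed between Q1 and Q4 (9 higher, 6 lower), or 28.3%, against 16.3% of all genes, and 14 passed in the trend, or 26.4%, against 17.7%.

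Slightly more estimates were upward than downward, and this depended on the settings. Of the 53 differences between Q1 and Q4, 32 were above and 21 below 0, with a median of 0.13 on the log2 scale, and over all genes the median was 0.10 with 59.6% above 0. With each of the 16 values centred on its median gene, the medians became -0.05 for members and -0.08 for all genes, and 25 members were above 0. Without preparation 1 the members' median was 0.01 with 28 above 0, and with the log2 of mean FPKM it was -0.0041 with 26 above 0. The estimates ran from -1.34 for Eif4ebp1 to 1.30 for Eif2b2, and 34 of 53 lay within 0.5 of 0, with a median standard error of 0.31. One sign in all 4 preparations was found for 21 members, 11 higher and 10 lower in Q1, while 22.3% of all genes showed this. The 4 values of Q1 and the 4 of Q4 did not overlap for Eif4ebp1, Eif2ak3 and Eif3e, 3 of 53 members, while 5.85% of all genes had groups that did not overlap.

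**Figure D2:**
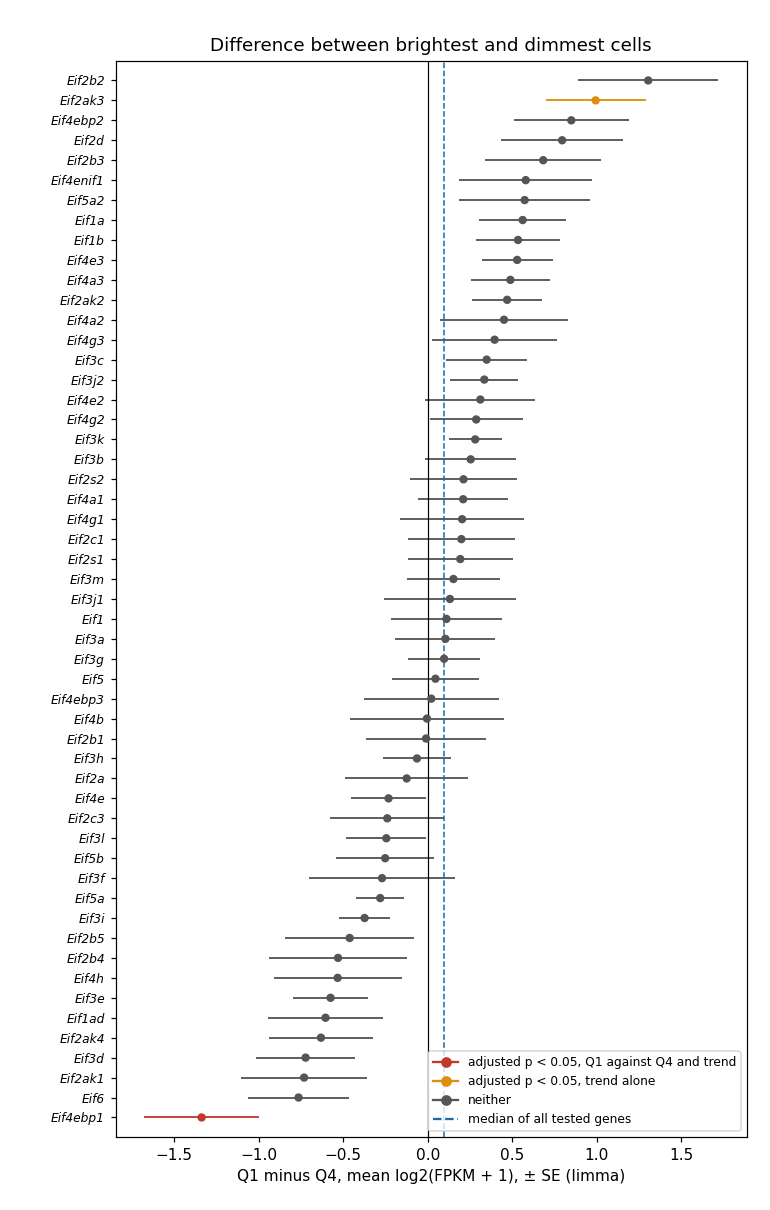
Difference in log2 level between Q1 and Q4 for the 53 tested members, with the limma standard error as a bar, ordered by size. Eif4ebp1 at -1.34 lies apart at the lower end, Eif2b2 at 1.30 and Eif2ak3 at 0.99 lead the upper end, and the dashed line marks the median of all tested genes at 0.10.

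The 4E-binding repressors hold the 1 member that passed both comparisons. Eif4ebp1 encodes 4E-BP1, the mTORC1 target that keeps eIF4E away from eIF4G. Its paralogs Eif4ebp2 and Eif4ebp3 encode proteins of the same kind, and Eif4enif1 encodes 4E-T, which carries eIF4E into the nucleus and into P-bodies. The short coding stretches around the eIF4E-binding motif are printed for 3 of them because this motif is what the members share. They are from GENCODE transcripts of GRCm38, read 5′ to 3′ on the coding strand, and the capitals mark the 21 bases of the motif's 7 codons, codons 53 to 59 of 117 in Eif4ebp1, 54 to 60 of 120 in Eif4ebp2 and 29 to 35 of 983 in Eif4enif1.
Eif4ebp1: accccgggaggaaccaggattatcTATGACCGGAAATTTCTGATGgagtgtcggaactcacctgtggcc
Eif4ebp2: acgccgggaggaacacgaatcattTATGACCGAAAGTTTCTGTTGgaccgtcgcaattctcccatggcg
Eif4enif1: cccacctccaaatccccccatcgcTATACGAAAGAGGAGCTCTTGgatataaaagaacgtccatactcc
Eif4ebp1 and Eif4ebp2 carry the same base at 18 of the 21 motif positions and at 52 of the 69 shown. Eif4ebp1 and Eif4enif1 match at 8 of 21 and 23 of 69.

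Eif4ebp1 (chr8:27260329-27276674, plus strand, GRCm38) was the most abundant of the 4, at 172 ± 34.9 FPKM (SD over 4 preparations) and in 92.3% of cells. In Q1 its log2 levels were 5.49, 5.97, 5.51 and 6.32 in preparations 1 to 4. In Q4 they were 6.33, 6.90, 7.85 and 7.57. Every preparation was lower in its brightest cells, and the groups did not overlap, although the highest Q1 value, 6.32, and the lowest Q4 value, 6.33, nearly met. The means from Q1 to Q4 were 5.82 ± 0.40, 6.16 ± 1.34, 6.70 ± 0.48 and 7.16 ± 0.68 (SD, n = 4). Eif4ebp1 was lower in Q1 than in Q4 by limma, with a difference of -1.34 (SE 0.34, adjusted p = 0.0269), and the slope was -0.46 per quartile (SE 0.10, adjusted p = 0.00956). In FPKM the means were 119 ± 28 in Q1 and 219 ± 59.5 in Q4.

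Most cells of every quartile held Eif4ebp1. It reached 1 FPKM in 72 of 79 cells in Q1 and 70 of 72 in Q4, and the share of cells showed no trend that passed (exact permutation p = 0.251, adjusted p = 0.656, n = 4 preparations). Among the cells that reached 1 FPKM, the medians over the pooled preparations were 105, 151, 207 and 194 FPKM from Q1 to Q4. Within preparations 1 to 4 these medians were 80.7, 145, 72.8 and 101 FPKM in Q1 and 86.4, 242, 216 and 250.4 in Q4, lower in Q1 in each, by little in preparation 1. Its ratio to Eif4e, the cap-binding factor it holds, was 0.661 ± 0.152, 0.909 ± 0.354, 1.08 ± 0.282 and 1.11 ± 0.380 from Q1 to Q4 (FPKM over FPKM, SD, n = 4).

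Both calls for Eif4ebp1 depended on the settings. The difference was no longer called without preparation 2, 3 or 4 (limma adjusted p = 0.0540, 0.222 and 0.102), without the preparation term (0.264), without the expression filter (0.112) or with genes detected per cell as a covariate (0.0629), and over all alternatives the adjusted p ran from 0.0101 to 0.264. The slope was called in 12 of 14 alternatives and lost without preparation 3 (-0.34, adjusted p = 0.137) and without the preparation term (0.123).

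The other 3 repressors gave no call. Eif4ebp2 was low, at 17.3 ± 5.00 FPKM and in 42.7% of cells. Its log2 levels were 1.69, 2.58, 1.06 and 2.76 in Q1 and 0.48, 1.14, 1.45 and 1.63 in Q4, higher in Q1 in 3 of 4 preparations, with overlap. The estimate, 0.85 (SE 0.34, limma adjusted p = 0.196), has the opposite sign to that of Eif4ebp1, and the contrast between the paralogs was not tested. Eif4enif1, at 78.1 ± 12.7 FPKM, had log2 levels of 5.89, 5.05, 4.90 and 5.32 in Q1 and 3.93, 4.59, 4.78 and 5.52 in Q4, an estimate of 0.58 (SE 0.39, limma adjusted p = 0.501). Eif4ebp3, at 27.5 ± 8.94 FPKM, had an estimate of 0.02 (SE 0.40), but 65.5% of its 50-base words also occur in a gene model that overlaps it, so reads from those words cannot be assigned to it alone.

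**Figure D3:**
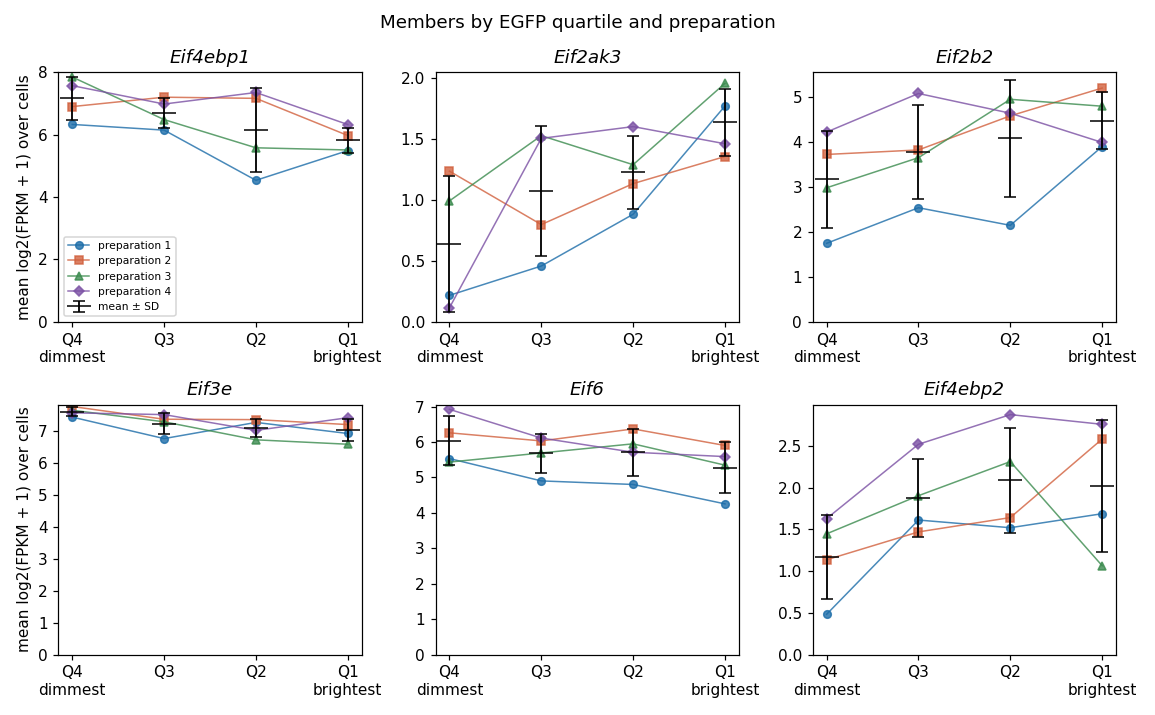
Log2 level by EGFP quartile from Q4 (dimmest) to Q1 (brightest) for 6 members, 1 coloured line per preparation, with the mean and SD over the 4 preparations in black. Eif4ebp1 runs down from a mean of 7.16 to 5.82, Eif2ak3 runs up from 0.64 to 1.63 and Eif2b2 from 3.17 to 4.48, while Eif3e, Eif6 and Eif4ebp2 passed neither test.

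Among the eIF2 kinases, Eif2ak3 was higher in brighter cells by the trend. Eif2ak3 encodes PERK, the kinase in the membrane of the endoplasmic reticulum that responds to unfolded protein. It lies at chr6:70844515-70905245 on the plus strand. It was a low transcript, at 7.50 ± 2.95 FPKM, and reached 1 FPKM in 27.7% of cells. Its log2 levels were 1.77, 1.35, 1.95 and 1.46 in Q1 and 0.22, 1.23, 0.99 and 0.11 in Q4. All 4 preparations were higher in Q1 and the groups did not overlap, by a margin that was narrow in preparation 2. Quartile means were 1.63 ± 0.28, 1.22 ± 0.30, 1.07 ± 0.53 and 0.64 ± 0.56 from Q1 to Q4 (SD, n = 4). The slope was 0.31 per quartile (SE 0.09, limma adjusted p = 0.0433), and the difference between Q1 and Q4 was 0.99 (SE 0.30, adjusted p = 0.0631), which did not pass.

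Eif2ak3 was seen in a minority of cells in every quartile. From Q1 to Q4 it reached 1 FPKM in 28 of 79, 25 of 78, 17 of 71 and 13 of 72 cells. In preparation 4 this held for 0 of 19 Q4 cells (with so few cells the share could be as high as 15.8%), and in preparation 2 for 8 of 20. The trend in these shares did not pass after adjustment (exact permutation p = 0.0192, adjusted p = 0.236, n = 4 preparations). Cells at 1 FPKM or more had medians of 20.9, 13.4, 21 and 6.59 FPKM from Q1 to Q4. The slope was called in 5 of 14 alternatives, and the adjusted p over the 14 ran from 0.0381 to 0.226. It was lost without preparation 1, 3 or 4 (0.25, 0.33 and 0.28, limma adjusted p = 0.226, 0.116 and 0.176), without the preparation term (0.118) and with genes detected per cell as a covariate (0.171). It was also lost with median centring (0.124), without the expression filter (0.0853), with the log2 of mean FPKM (0.0682) and with a pseudocount of 0.1 (0.0521).

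**Figure D4:**
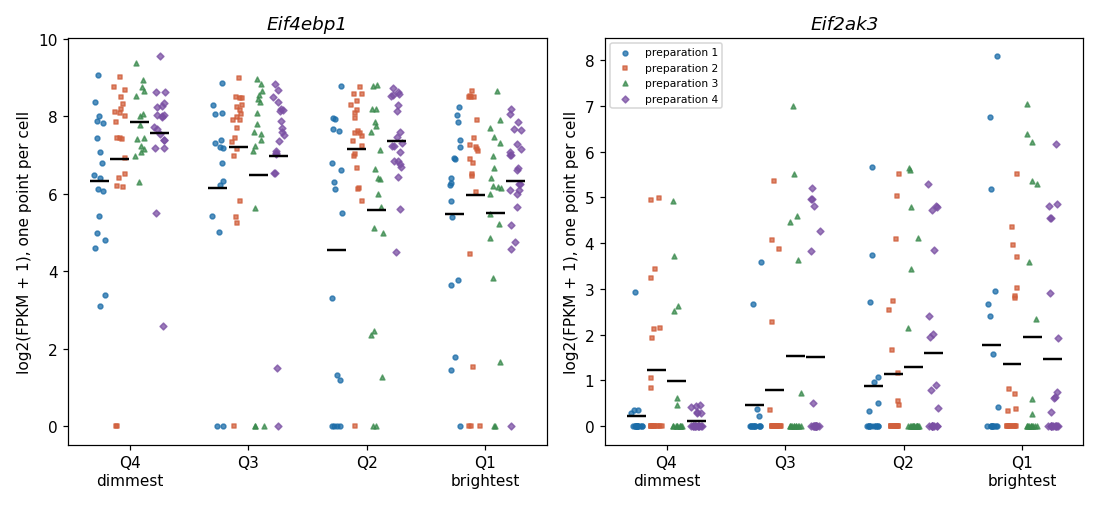
Log2(FPKM + 1) of Eif4ebp1 and Eif2ak3 in each of the 300 cells by EGFP quartile from Q4 to Q1, 1 point per cell in 4 columns by preparation, with a black bar at each mean. Eif4ebp1 is a broad cloud in most cells with some at 0, while Eif2ak3 is at or near 0 in most cells of every quartile.

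None of the other 3 kinases passed a test. Eif2ak1, the haem-regulated kinase HRI, was the most abundant at 29.6 ± 7.45 FPKM and in 64.3% of cells. Its log2 levels were 2.28, 2.76, 3.63 and 3.12 in Q1 and 2.28, 3.39, 3.73 and 5.31 in Q4, with an estimate of -0.73 (SE 0.37, limma adjusted p = 0.334). Eif2ak4, the amino-acid sensor GCN2, stood at 6.42 ± 1.19 FPKM, with log2 levels of 0.61, 0.74, 0.63 and 1.27 in Q1 and 1.27, 1.00, 0.75 and 2.77 in Q4. The estimate was -0.63 (SE 0.31, limma adjusted p = 0.304). Both had their highest Q4 value in preparation 4, where Eif2ak3 had its lowest. Eif2ak2, the double-stranded RNA sensor PKR, was the lowest at 3.40 ± 2.28 FPKM and in 14.7% of cells, with an estimate of 0.47 (SE 0.21, limma adjusted p = 0.249), and was higher in Q1 in 4 of 4 preparations. The contrasts between kinases were not tested.

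The exchange factor eIF2B, which reloads eIF2 with GTP and is the step the kinases block, had the largest upward estimate of all members in Eif2b2. Eif2b2, the beta subunit (chr12:85219481-85226628, plus strand), stood at 49.9 ± 14.1 FPKM and in 71.3% of cells. Eif2b2 had log2 levels of 3.90, 5.21, 4.80 and 3.99 in Q1 and 1.75, 3.73, 2.99 and 4.23 in Q4. Preparations 1 to 3 were higher in Q1 by 2.16, 1.48 and 1.82, while preparation 4 went the other way by -0.23. The difference was 1.30 (SE 0.41, limma adjusted p = 0.0847) and the slope 0.42 (SE 0.13, adjusted p = 0.0538), neither of which passed. The share of cells at 1 FPKM or more was 82.3%, 74.4%, 70.4% and 56.9% from Q1 to Q4, and this trend had the smallest p of any member (exact permutation p = 0.00708, adjusted p = 0.149, n = 4 preparations). Without preparation 4 the difference was 1.82 (adjusted p = 0.0408) and the slope 0.60 (0.0205), both called, and with a pseudocount of 0.1 the slope was called as well (0.64, adjusted p = 0.0469). These were the only calls in 14 alternatives, 1 for the difference and 2 for the slope. Over the 14 the limma adjusted p reached 0.493 for the difference and 0.368 for the slope.

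None of the other 4 eIF2B subunits passed. Eif2b3, the gamma subunit and the most abundant at 127 ± 19.9 FPKM, had log2 levels of 6.41, 6.99, 6.25 and 6.63 in Q1 and 5.20, 6.34, 5.08 and 6.92 in Q4, with an estimate of 0.68 (SE 0.34, limma adjusted p = 0.328). The alpha subunit Eif2b1 at 119 ± 16.1 FPKM had an estimate of -0.01, the delta subunit Eif2b4 at 64.2 ± 12.1 FPKM one of -0.53, and the catalytic epsilon subunit Eif2b5 at 27.2 ± 3.00 FPKM one of -0.46. The 5 subunits of this complex spanned a 4.67-fold range of FPKM.

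The genes of eIF2 itself and of alternative tRNA delivery gave no call. Eif2s1, the alpha subunit that the kinases phosphorylate, stood at 52.5 ± 5.67 FPKM and Eif2s2, the beta subunit, at 42.9 ± 12.6 FPKM, with estimates of 0.19 (SE 0.31) and 0.21 (SE 0.31). Eif2a, a separate protein that can bring initiator tRNA without GTP, was the highest of this group at 77.2 ± 15.6 FPKM. Its log2 levels were 4.89, 5.39, 4.56 and 5.05 in Q1 and 5.64, 5.03, 4.74 and 4.98 in Q4, with overlap and an estimate of -0.12 (SE 0.36, limma adjusted p = 0.910). Eif2d, which acts in recycling and non-canonical initiation, stood at 33.7 ± 4.13 FPKM and in 48.3% of cells. Eif2d had log2 levels of 2.16, 3.12, 3.60 and 3.43 in Q1 and 1.91, 2.31, 1.79 and 3.11 in Q4, higher in Q1 in 4 of 4 preparations, with an estimate of 0.80 (SE 0.36, limma adjusted p = 0.262).

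The 14 genes of eIF3, the scaffold that holds the small subunit and recruits the mRNA, spanned the widest range of levels. Eif3k at 741 ± 31.1 FPKM, Eif3i at 731 ± 54.2, Eif3g at 505 ± 88.6, Eif3l at 399 ± 40.9 and Eif3d at 325 ± 79.7 led. Eif3h at 249 ± 41.8, Eif3e at 203 ± 28.1, Eif3a at 133 ± 39.2 and Eif3c at 124 ± 6.53 FPKM followed. Eif3b stood at 91.5 ± 7.63, Eif3m at 86 ± 11, Eif3f at 41.9 ± 9.35, Eif3j1 at 24.8 ± 4.51 and Eif3j2 at 2.83 ± 1.88 FPKM. Eif3j2 shares 91.8% of its 50-base words with other genes, Eif3j1 first among them, so reads of this pair could be split between them. The subunits sit in 1 complex, but Eif3k was 18.2 times as high as Eif3f in FPKM, with a range over preparations from 13.6 to 21.7.

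No eIF3 gene passed a test, and 8 of 14 estimates were above 0. Eif3k had log2 levels of 9.66, 9.48, 9.40 and 9.50 in Q1 and 8.76, 9.47, 9.47 and 9.23 in Q4, with an estimate of 0.28 (SE 0.16, limma adjusted p = 0.389). Eif3d, the subunit known to bind the cap of some mRNAs, had 6.01, 7.70, 7.62 and 8.53 in Q1 and 7.04, 8.19, 8.74 and 8.78 in Q4, lower in Q1 in 4 of 4 preparations, with an estimate of -0.72 (SE 0.29, limma adjusted p = 0.203). An antisense gene shares 42.1% of the words of Eif3d, and without strand the reads of the shared stretch cannot be told apart. Eif3e, whose groups did not overlap, was at 6.94, 7.21, 6.60 and 7.43 in Q1 and 7.45, 7.78, 7.66 and 7.58 in Q4, with an estimate of -0.57 (SE 0.22, limma adjusted p = 0.177). Eif3i, the beta-propeller subunit found in every cell, was also lower in Q1 in 4 of 4 preparations, by an estimate of -0.37 (SE 0.15, limma adjusted p = 0.195).

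The factors of start codon selection had upward and downward estimates, none called. Eif1b at 276 ± 25.9 FPKM was 4.07 ± 0.224 times its paralog Eif1 at 67.8 ± 7.49 FPKM (SD over 4 preparations), and was the higher of the pair in 92.7% of cells. Of the 50-base words of Eif1, 31.6% occur in other genes, pseudogenes among them. Eif1b had log2 levels of 7.57, 8.10, 8.24 and 8.01 in Q1 and 7.26, 7.32, 7.50 and 7.71 in Q4, an estimate of 0.53 (SE 0.25, limma adjusted p = 0.276) with 4 of 4 preparations higher in Q1. Eif1a, at 122 ± 11.4 FPKM, was likewise higher in 4 of 4, by 0.56 (SE 0.26, limma adjusted p = 0.268). Eif1ad, a nuclear protein with an eIF1A domain at 76.2 ± 7.61 FPKM, had 4.37, 5.44, 5.36 and 4.79 in Q1 and 5.22, 5.82, 5.38 and 5.95 in Q4, with an estimate of -0.60 (SE 0.34, limma adjusted p = 0.391).

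The cap-binding factors and their scaffolds gave no call. Eif4e, the main cap-binding protein, stood at 188 ± 12.8 FPKM, with log2 levels of 7.01, 7.40, 7.06 and 7.33 in Q1 and 7.42, 7.50, 7.33 and 7.48 in Q4. All 4 preparations were lower in Q1, by an estimate of -0.23 (SE 0.22, limma adjusted p = 0.669). Eif4e2, a homolog used in repression, stood at 66.5 ± 2.45 FPKM and Eif4e3 at 2.51 ± 0.904 FPKM, with estimates of 0.31 (SE 0.32) and 0.53 (SE 0.21, limma adjusted p = 0.191). Among the scaffolds the highest was Eif4g2 (DAP5, which lacks the eIF4E-binding part) at 85 ± 13.9 FPKM, above Eif4g1 at 18.8 ± 7.75 and Eif4g3 at 16.7 ± 2.51 FPKM. Eif4g2 had log2 levels of 6.38, 5.91, 6.12 and 6.14 in Q1 and 5.72, 5.76, 5.81 and 6.12 in Q4, an estimate of 0.29 (SE 0.27, limma adjusted p = 0.669). Eif4g1 and Eif4g3 had estimates of 0.20 (SE 0.36) and 0.40 (SE 0.37).

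The helicase eIF4A and its cofactors were also without a call. Eif4a3, whose protein belongs to the exon junction complex and not to cap-dependent initiation, was the highest at 161 ± 35.3 FPKM. It had log2 levels of 6.66, 7.54, 7.25 and 7.49 in Q1 and 5.41, 7.09, 6.86 and 7.61 in Q4, an estimate of 0.49 (SE 0.23, limma adjusted p = 0.292). The cytoplasmic helicases Eif4a1 at 62.5 ± 6.88 and Eif4a2 at 59.3 ± 6.67 FPKM were close to each other, at a ratio of 1.06 ± 0.171 (SD over 4 preparations). Of the words of Eif4a1, 33.3% occur elsewhere, in pseudogenes among others. For Eif4a3 this share was 24.4% and for Eif4a2 12.7%. The estimates of Eif4a1 and Eif4a2 were 0.21 (SE 0.27) and 0.45 (SE 0.38). Eif4b at 45.8 ± 7.13 and Eif4h at 46.3 ± 4.44 FPKM, which stimulate the helicase, had estimates of -0.0044 (SE 0.46) and -0.53 (SE 0.38).

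Of the late factors, Eif5a was the most abundant at 677 ± 72.1 FPKM. Its protein carries hypusine and is now known mainly as an elongation and termination factor. Eif5a had log2 levels of 8.84, 9.20, 9.11 and 9.32 in Q1 and 9.33, 9.32, 9.43 and 9.52 in Q4, lower in Q1 in 4 of 4 preparations, with an estimate of -0.28 (SE 0.14, limma adjusted p = 0.325). Its paralog Eif5a2 stood at 35.1 ± 11.6 FPKM, so that the FPKM of Eif5a was 20.9 ± 6.58 times as high, with an estimate of 0.57 (SE 0.39, limma adjusted p = 0.499). Eif6, which keeps the large ribosomal subunit from joining early, was at 97.2 ± 14 FPKM, with log2 levels of 4.25, 5.90, 5.35 and 5.59 in Q1 and 5.53, 6.26, 5.43 and 6.92 in Q4. It too was lower in 4 of 4 preparations, by an estimate of -0.76 (SE 0.30, limma adjusted p = 0.186). Eif5, the GTPase activator of eIF2, at 179 ± 23.5 FPKM and Eif5b, the GTPase of subunit joining, at 54.1 ± 8.00 FPKM had estimates of 0.05 (SE 0.26) and -0.25 (SE 0.29).

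The Argonaute genes under their older names were low. Eif2c3 (Ago3) stood at 6.97 ± 0.581 FPKM, with log2 levels of 1.29, 1.87, 2.20 and 1.57 in Q1 and 1.59, 1.75, 2.01 and 2.53 in Q4, an estimate of -0.24 (SE 0.34, limma adjusted p = 0.799). Eif2c1 (Ago1) stood at 4.47 ± 1.11 FPKM with an estimate of 0.20 (SE 0.32), Eif2c4 (Ago4) at 0.942 ± 0.696 and Eif2c2 (Ago2) at 0.565 ± 0.331 FPKM.

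Sums by role are given as descriptions and were not tested, and how often sums of other genes keep one sign was not counted. The start codon group was 593 ± 34.2 FPKM in Q1 and 480.4 ± 28.5 in Q4 (SD, n = 4), higher in Q1 in 4 of 4 preparations. The group of eIF5, eIF5A, eIF5B and eIF6 was 964 ± 36.1 FPKM in Q1 and 1142 ± 71.2 in Q4, and the eIF2 kinases were 43.9 ± 7.54 and 59.6 ± 14.2, each lower in Q1 in 4 of 4. The mean FPKM of the kinases differed in direction, and the contrasts between them were not tested. Eif2ak1, the largest part of their sum, was at 21.1 FPKM in Q1 and 45.8 in Q4, and Eif2ak4 at 3.80 and 8.92. Eif2ak3 (14.8 and 2.12) and Eif2ak2 (4.27 and 2.68) were higher in Q1. The Q1 mean of Eif2ak3 includes a preparation 1 cell at 270 FPKM, in a group whose median was 0. The 4E-binding repressors were 253 ± 41.8 FPKM in Q1 and 327 ± 47.3 in Q4, and eIF3 was 3508 ± 224 and 3908 ± 423. As a share of all FPKM in a cell, the 56 genes made up 13947 ± 343, 14375 ± 677, 14624 ± 1416 and 14904 ± 923 of every 1000000 from Q1 to Q4, with 0 of 4 preparations higher in Q1 than in Q4.

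**Figure D5:**
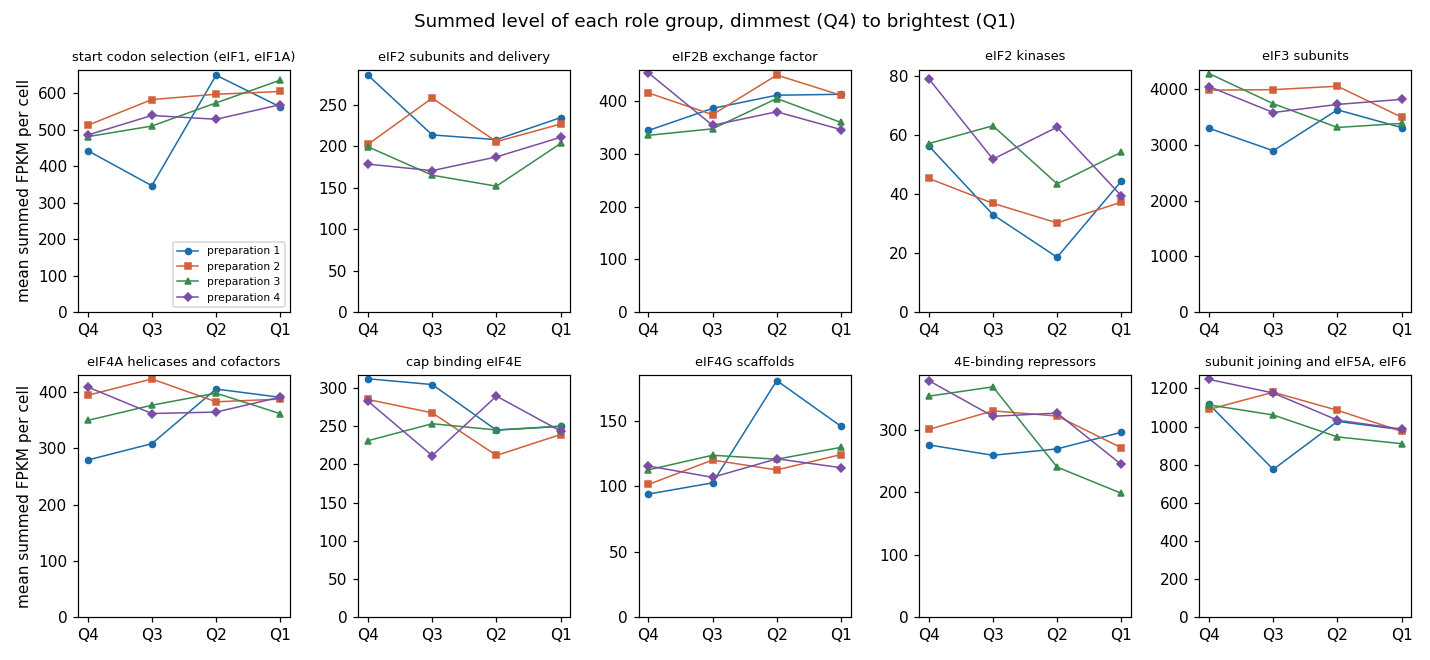
Mean summed FPKM per cell of 10 role groups (Argonautes not drawn) by EGFP quartile from Q4 to Q1, 1 line per preparation. The start codon group ends higher at Q1 (593 on average) than it starts at Q4 (480.4), while the last group runs the other way, from 1142 to 964.

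The preparations differed in genes detected per cell and in the level of single members. Of the 53 tested members, 39 had their lowest log2 level in preparation 1, or 73.6%, against 76.5% of all tested genes, and it is the preparation with the fewest genes detected per cell. For Eif4g1 the mean was 7.28 FPKM in preparation 1 and 23, 23.6 and 21.3 in the other 3. Eif3a stood at 75.1 FPKM in preparation 1 and at 154, 159 and 145 in preparations 2 to 4. Other members went the opposite way, such as Eif2s2 at 61.2 FPKM in preparation 1 and 41.5, 33.9 and 35.1 in the others, and Eif5a2 at 52.1 FPKM against 31.1, 26 and 31.1.

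In the share of cells at 1 FPKM or more, 0 of 53 members had a trend over quartiles that passed (exact permutation of quartile labels within preparations, adjusted over all genes), while 1.13% of all tested genes passed. At an unadjusted p under 0.05, 7 members and 14.1% of all genes passed by the permutation test. The smallest of these belonged to Eif2b2, then Eif3b (exact permutation p = 0.00875, adjusted p = 0.168), which reached 1 FPKM in 100% of cells in Q1 and 91.2% in Q4 on average over the 4 preparations. Eif4ebp2 went from 48.3% to 34.6% (exact permutation p = 0.0137, adjusted p = 0.204, n = 4).

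Pairs of members were weakly correlated from cell to cell, about as weakly as pairs of all genes. Spearman correlations were computed within each preparation, over its 67 to 82 cells, and averaged over the 4. They are descriptions, since cells of a preparation share a chip. Over the 703 pairs of the 38 members found in at least 80% of cells the median was 0.03, with a range from -0.16 to 0.26, and over all pairs of the 2269 genes found as often it was 0.02. The 66 pairs of the 12 eIF3 genes in that set had a median of 0.04, although their products share a complex. The highest value was 0.26 for Eif2b4 and Eif5a, and Eif5a was a partner in the 5 highest pairs, the others being with Eif4a3, Eif3i, Eif4ebp1 and Eif3d. The mean log2 level of the members in a cell followed the number of genes detected in that cell, with a mean correlation of 0.72 and a range over preparations from 0.64 to 0.79. Undetected members lower this mean, so the 2 measures are not independent. For the summed FPKM of the members the correlation was 0.14, with a range from 0.08 to 0.30. Other gene sets were not compared.

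Other genes of the pathway mostly did not pass either. Of 8 tested elongation factor genes, 0 passed either test, and the smallest adjusted p was that of Eef2k, the kinase that inhibits eEF2, at 0.49 ± 0.16 in Q1 and 1.25 ± 0.38 in Q4 (difference -0.76, SE 0.23, limma adjusted p = 0.0669). Of 10 genes of the mTORC1 pathway, which phosphorylates 4E-BP1, and of 8 genes of the integrated stress response, which acts downstream of the eIF2 kinases, 0 passed either test. Atf4, the transcription factor translated when eIF2 is phosphorylated, differed by 0.35 (SE 0.36, limma adjusted p = 0.702), and Trib3 and Ddit3, both known as its targets, by -0.51 (SE 0.21, 0.209) and 0.60 (SE 0.43, 0.530). The lists of poly(A) tail binding (6 genes), helicases and eIF4A regulators (8), hypusine and diphthamide enzymes (6), mitochondrial initiation (3) and proliferation (15) had 0 calls each.

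In the list of termination and recycling, 1 of 9 tested genes passed between Q1 and Q4, where 3.25% of all genes did, and 2 passed in the trend, where 4.51% did. Mcts1, which with DENR recycles the small subunit and restarts it after short upstream reading frames, was at 2.42 ± 0.39 in Q1 and 0.84 ± 0.21 in Q4 (SD, n = 4). It was higher by 1.58 (SE 0.36, limma adjusted p = 0.0120), with a slope of 0.47 (SE 0.11, adjusted p = 0.0161). Its retrogene Mcts2 was at 5.53 ± 0.53 and 4.44 ± 0.58, with a slope of 0.42 (SE 0.11, limma adjusted p = 0.0282) and a difference of 1.09 (SE 0.35, adjusted p = 0.0882). The transcripts of the pair share 0% of their 50-base words, so reads of that length without mismatches would not be exchanged between them. The difference of Mcts1 was called in 10 of 14 alternatives and lost without preparation 1 (1.34, limma adjusted p = 0.0924), and its slope was called in 8, lost among others without preparation 1, 2 or 3 (adjusted p = 0.0964, 0.0555 and 0.0653). The slope of Mcts2 was called in 5 of 14 and lost without any one of preparations 1 to 4 (limma adjusted p = 0.0690, 0.178, 0.0531 and 0.0853).

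Of the 56 genes, 43 had at least 1 RefSeq promoter window on GRCm38.p6, from 250 bases before to 50 after the start, and 7 of them had several. A gene was counted for a motif when any of its windows held it on either strand. The background shares are not matched to the members in level or in number of windows. Of tested members 71.7% reached 1 FPKM in at least 80% of cells, against 21.8% of tested genes. The ETS core CCGGAAG was found for 16 of 43 genes (37.2%), against 22.6% of tested genes and 9.93% of all genes with a window. The E-box CACGTG, the site type bound by MYC, was found for 10 of 43 (23.3%), against 12.9% and 8.09%. The GC box GGGGCGGGG was found for 8 of 43 (18.6%), against 26.6% of tested genes and 12.9% of all genes with a window. The NRF1 site was found for 1 of 43 genes, Eif3k, and the YY1 site, the CRE TGACGTCA and the composite site of ATF4 and C/EBP, TGATGNAA, for 0 of 43, against 2.78%, 2.82%, 4.0% and 2.43% of tested genes. Eif1b, Eif5a and Eif5a2 held both the ETS core and the E-box, and neither motif contains the other. Eif4ebp1, the member called in both comparisons, had no window, so its promoter was not searched. The promoters of the 2 members that led the upward estimates are shown, with the ETS core in capitals. The window of Eif2ak3 held none of these 7 motifs.
Eif2ak3 promoter, chr6:70844265-70844564, plus strand: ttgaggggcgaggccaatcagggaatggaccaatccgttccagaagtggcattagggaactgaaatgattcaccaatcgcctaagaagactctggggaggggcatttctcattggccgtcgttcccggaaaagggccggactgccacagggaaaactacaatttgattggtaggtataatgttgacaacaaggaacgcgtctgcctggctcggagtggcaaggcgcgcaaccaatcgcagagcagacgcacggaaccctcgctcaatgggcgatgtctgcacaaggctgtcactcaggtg
Eif2b2 promoter, chr12:85219231-85219530, plus strand: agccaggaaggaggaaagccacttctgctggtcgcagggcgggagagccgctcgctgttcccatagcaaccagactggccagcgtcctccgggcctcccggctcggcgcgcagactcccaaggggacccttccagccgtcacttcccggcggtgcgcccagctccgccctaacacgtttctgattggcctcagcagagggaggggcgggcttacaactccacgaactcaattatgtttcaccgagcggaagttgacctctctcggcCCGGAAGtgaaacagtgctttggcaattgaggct
In Eif2b2 the ETS core lies 16 bases after the annotated start. A match is a description of these letters, and binding was not measured.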

How the data were processed

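The deposited table holds values for 300 cells with no unit in its header. They are read as FPKM because the submitters' processing notes name Cufflinks (with TopHat, FastQC and Picard, on mm10 and GRCm38, without versions), so sequencing depth is unknown. Summed FPKM per cell, per the deposited values, ran from 348305 to 682985, and 0 columns lacked a sample. Preparation numbers come from the sample titles, and that they mark the preparation is an assumption. On that reading the 4 means of a preparation share mice and chip. After removal of quartile means they correlated at 0.0112 to 0.360 (median 0.129). Pairs of means from different preparations correlated at -0.249 to 0.137 (median -0.0431). limma 3.58.1 (R 4.3.3, trend and robust) was fitted to 16 means of log2(FPKM + 1), a scale that understates changes of low genes. Shares of cells were tested by all 331776 relabelings (smallest p 6.03e-06). Both were tested on simulated data. Alternatives covered the preparation term, pseudocount, filter, each preparation, scaling, genes detected as a covariate, summary and cells of other types (at least 3 and 50% of a type's markers at 5 FPKM).

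The members and gene lists were chosen with earlier results of these data known. Every member is named, with full values for called members, the 12 largest differences and the highest member of each role, and for Eif3e, added after its values were seen. From other lists the text names called genes, Eef2k for the smallest p of its list, and Atf4, Trib3 and Ddit3 for their role. Words are the 50-base stretches of a gene's longest GENCODE transcript, looked up in the GENCODE transcripts of other genes.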

Additional observations from a re-analysis of the deposited data

Results flagged for a closer look

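Dixon's test at the 95% level was run on the 4 preparations of each quartile for the 20 members that the naming rule gives full values, 80 groups in all, Eif3e not among them, and it singled out 2. Chance alone marks about 1 in 20 such groups. Eif1b in Q3 stood at 6.00 in preparation 1 (mean log2(FPKM + 1)), with the other 3 preparations close to each other at 7.94, 7.93 and 7.96. Eif2b2 in Q2 stood at 2.15 in preparation 1, against 4.59, 4.96 and 4.65. Preparation 1 is also the one with the fewest genes detected per cell, and its part in these values was not tested. Without preparation 1 the estimate for Eif2b2 between Q1 and Q4 was 1.02 (limma adjusted p = 0.272).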

How the results depend on the processing

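For the members, the count called between Q1 and Q4 was 1, and it was 0 with no replicate block (the preparation term left out), with no filter and with genes detected as a covariate. Leaving out 1 preparation gave 0 to 1, and the 1 without preparation 4 was Eif2b2. The trend count of 2 became 0 with no replicate block, and 1 each with no filter, median centring, the covariate and the log2 of mean FPKM, and 0 to 2 without 1 preparation. With a pseudocount of 0.1 the 2 were Eif4ebp1 and Eif2b2. For all genes, 338 calls between Q1 and Q4 became 99 with no replicate block, 177 with no filter, 135 with the covariate and 80 with the log2 of mean FPKM, and 137 to 270 without 1 preparation. In the trend, 470 became 177, 274, 197 and 113 in the same order, and 176 to 354 without 1 preparation. Median centring moved the share of higher calls from 83.7% to 57.8%. The cause of these shifts was not tested. The share test gave 0 called members under each of the 7 alternatives run for it. Estimates of 2 of the 20 members changed sign, Eif2a and Eif2c3, in 1 alternative each, and neither was called.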
